A study of Ovis aries with 24 samples.

Results

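The genes described here encode the beta A subunit of activin and inhibin (INHBA), the alpha subunit of inhibin (INHA) and the receptors ACVR1, ACVR1B and ACVR2A, measured in the ductus arteriosus and the aorta of sheep before and after birth. Every probe whose array name or RefSeq entry resolved to the symbol of 1 of these 5 genes was taken, which gave 2 probes per gene and 10 of the 15008 non-control probes. INHBA was chosen by its measured difference between the vessels in the preterm and near-term fetuses of these same arrays, so those differences are given as a description, without a p-value. The other 4 genes were taken by name as its partner subunit and its receptors. The array lists ACVR2A under the older name ACVR2, and no sequence of any of these probes is used here.

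The 6 groups were the ductus and the aorta of preterm fetuses at 97 days of gestation, of near-term fetuses at 136 days and of newborn lambs at 12 hours, with 4 arrays from 4 animals in each group. The sample titles give 100 and 140 days for the fetal stages. The tissue label names the ascending aorta, while the protocol speaks of aorta next to the ductus. All animals were sheep with no genetic change or drug treatment named in the labels, and the ductus of the lambs was taken during the hours in which this vessel closes. Whole vessel pieces were used, so fewer cells of a type and less RNA per cell cannot be told apart.

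Activins are dimers of beta subunits, and a dimer of 2 INHBA chains is activin A. INHA joins a beta chain to form inhibin, which opposes activin by competing for its receptors, so that both proteins draw on the same beta A chain. Activin binds a type II receptor such as ACVR2A or ACVR2B, which recruits the type I receptor ACVR1B and passes the signal to SMAD2 and SMAD3. ACVR1 is a type I receptor of the same family that is best known for carrying bone morphogenetic protein signals. Activin A is known to be made by vascular smooth muscle, endothelium and activated macrophages.

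Signals were compared as the log2 processed signal minus the log2 of the 75th percentile of the array, called the log2 signal below. A value of 0 is the 75th percentile itself, and levels of different probes cannot be compared. A difference was called at an adjusted p under 0.05 in a limma fit of all 24 arrays, with Benjamini-Hochberg adjustment over the 13997 tested probes, and its error is the standard error (SE) of that fit. All 10 probes were tested, and 0 of them were saturated or marked as outlier spots. The probes A_70_P002856 and A_70_P002857, listed as LOC443288, were read beside them but did not resolve to the symbol of a member. They are not counted here, and neither was called in any comparison, at unadjusted p down to 0.0346 (limma). The 75th percentile of the arrays ran from 322.1 to 1143 units, and 12 of the 24 arrays had a spike-in detection limit above 1.5, namely 2 of preterm ductus, 3 of preterm aorta, 2 of near-term ductus, 3 of near-term aorta, 0 of newborn ductus and 2 of newborn aorta. The 8 arrays of a stage lay on the same slide, and the vessels were placed in separate columns, so an effect of the slide cannot be told apart from stage, nor one of the column from vessel. The median of all tested probes lay off 0, between −0.31 and 0.22 in the comparisons of 2 groups, and changes are to be read against it.

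INHBA was 1.98- to 2.28-fold higher in the fetal ductus than in the fetal aorta, and at 12 hours after birth its signal in the ductus lay at the level of the aorta. In preterm fetuses probe A_70_P051057 read 4.90, 4.75, 4.63 and 4.43 in the ductus, against 4.05, 3.78, 3.04 and 3.38 in the aorta. In near-term fetuses it read 4.78, 4.75, 4.54 and 4.96 in the ductus, against 4.18, 3.32, 3.88 and 3.69 in the aorta. All ductus arrays were above all aorta arrays at both fetal stages. In newborn lambs the same probe read 3.87, 4.01, 4.04 and 3.93 in the ductus, against 3.63, 4.02, 3.85 and 4.20 in the aorta. There the vessels overlapped, and the 4 newborn ductus arrays lay below all 8 fetal ductus arrays.

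**Figure D1:**
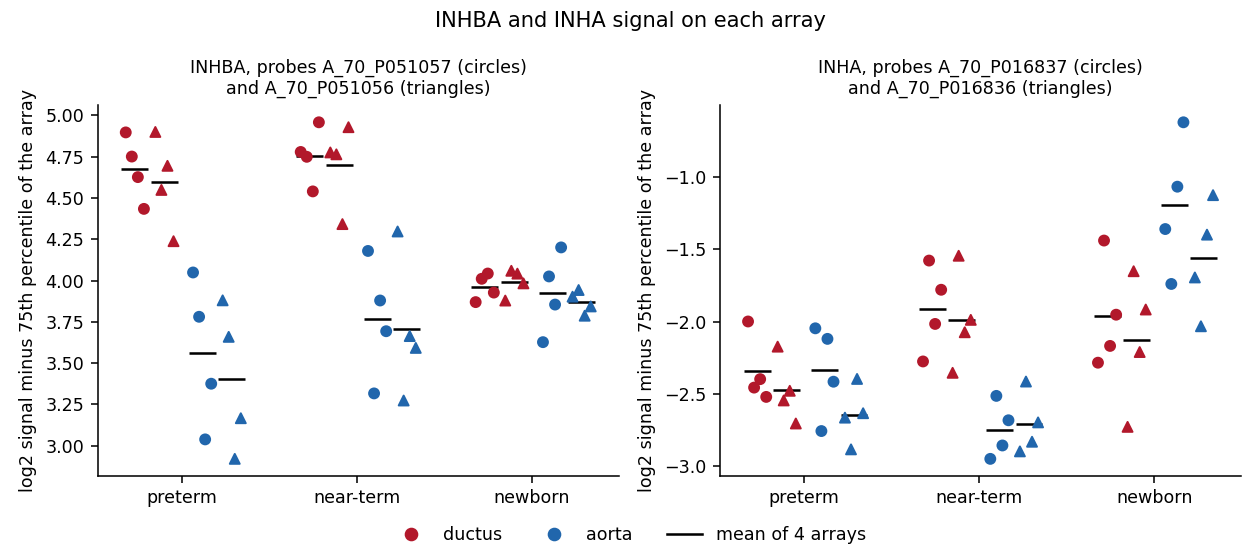
Log2 signal minus the 75th percentile of the array for both probes of INHBA (left) and of INHA (right), by stage and vessel, with 1 point per array and a line at the mean of 4 arrays. For probe A_70_P051057 of INHBA the fetal ductus arrays sit between 4.43 and 4.96, above every aorta array and every newborn array, and for INHA the newborn aorta has the highest means, −1.20 and −1.56.

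By mean, the groups ran from near-term ductus (4.76 ± 0.17, SD, n = 4) and preterm ductus (4.68 ± 0.20) through newborn ductus (3.96 ± 0.08), newborn aorta (3.93 ± 0.24) and near-term aorta (3.77 ± 0.36) to preterm aorta (3.56 ± 0.44). For this probe, A_70_P051057, the step between preterm ductus and newborn ductus was the 1 step between neighbours in that order that passed the test, and the other neighbours did not differ beyond their spread. The preterm ductus values helped choose the gene, so this test is not independent of the choice. The second probe, A_70_P051056, gave the same order but did not pass at that step (limma, adjusted p = 0.0651). It correlated with the first at 0.968 over the 24 arrays. Its preterm means were 4.59 ± 0.28 in the ductus and 3.41 ± 0.44 in the aorta, and its near-term means 4.70 ± 0.25 in the ductus and 3.71 ± 0.43 in the aorta (SD, n = 4). Its newborn arrays were close together, at 3.88 to 4.06 in the ductus and 3.79 to 3.94 in the aorta.

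The fetal differences that chose the gene were 1.12 ± 0.20 and 1.19 ± 0.22 on the log2 scale in preterm ductus over aorta, or 2.17-fold and 2.28-fold for the probes A_70_P051057 and A_70_P051056. Near term they were 0.99 ± 0.20 and 1.00 ± 0.22, or 1.98-fold and 1.99-fold. In both comparisons these were the 2 of 10 member probes called, where 0.707% of all tested probes were called in preterm and 1.15% in near-term fetuses, and nothing is read from counts that chose the gene. On the arrays with a detection limit under 1.5 alone, which left 1 aorta array at each fetal stage, the differences were 0.64 and 0.74 in preterm and 0.67 and 0.55 in near-term fetuses.

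The newborn arrays did not enter the choice of INHBA. In them the ductus minus aorta difference was 0.04 ± 0.20 for A_70_P051057, with a 95% interval of −0.39 to 0.46 (limma, adjusted p = 0.915). For A_70_P051056 it was 0.12 ± 0.22, with an interval of −0.33 to 0.57 (limma, adjusted p = 0.705). The change in this difference at birth was −0.95 ± 0.29 and −0.87 ± 0.31 and was not called for either probe (limma, adjusted p = 0.255 and 0.39). This change subtracts the near-term difference that chose the gene, so its sign and size are not independent of the choice.

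Within the ductus, INHBA fell at birth, and its fetal stages differed by less than the standard error. Newborn minus near-term ductus was −0.79 ± 0.20 for A_70_P051057 (limma, adjusted p = 0.0168) and −0.71 ± 0.22 for A_70_P051056 (limma, adjusted p = 0.04), while the median of all probes was −0.31 in that comparison. These were the 2 of 10 member probes called, against 10.8% of all probes. With arrays scaled by their median the falls were −0.48 and −0.40 and were not called (limma, adjusted p = 0.272 and 0.422), and with normexp background correction they were −0.58 and −0.52 (limma, adjusted p = 0.0758 and 0.0843). Leaving out 1 array kept the call of A_70_P051057 in all 8 cases, at adjusted p up to 0.049, and ended that of A_70_P051056 in 7 of 8, at adjusted p up to 0.101. Because the fetal ductus arrays are also those whose high values chose the gene, these p-values are not independent of the choice.

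Newborn minus preterm ductus was −0.71 ± 0.20 and called for A_70_P051057 (limma, adjusted p = 0.0209) and −0.60 ± 0.22 and not called for A_70_P051056 (limma, adjusted p = 0.0651). This was the 1 of 10 member probes called there, against 15.7% of all probes. The call ended under median scaling (limma, adjusted p = 0.199), under normexp (limma, adjusted p = 0.0908) and without preterm ductus replicate 1, preterm ductus replicate 2 or newborn ductus replicate 1 (limma, adjusted p = 0.0631, 0.0505 and 0.0569). Near-term minus preterm ductus was 0.08 ± 0.20 and 0.11 ± 0.22. In the aorta the INHBA differences were 0.16 ± 0.20 and 0.16 ± 0.22 for newborn minus near-term and 0.37 ± 0.20 and 0.46 ± 0.22 for newborn minus preterm, and none was called.

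INHA, the alpha chain of inhibin, moved in the other vessel. It was 2.12- to 2.94-fold higher in the newborn aorta than in the fetal aorta, and no change was called in the ductus. Probe A_70_P016837 read −2.00, −2.46, −2.40 and −2.52 in preterm ductus, against −2.05, −2.76, −2.12 and −2.42 in preterm aorta. In near-term fetuses it read −2.28, −1.58, −2.02 and −1.78 in the ductus, against −2.95, −2.51, −2.86 and −2.68 in the aorta. In newborn lambs it read −2.28, −1.44, −2.17 and −1.95 in the ductus, against −1.36, −1.74, −1.06 and −0.62 in the aorta. The 4 newborn aorta arrays were above all 8 fetal aorta arrays, the near-term vessels did not overlap, and the preterm and the newborn vessels did.

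By mean, INHA stood at −1.20 ± 0.47 in newborn aorta, −1.91 ± 0.30 in near-term ductus, −1.96 ± 0.37 in newborn ductus, −2.33 ± 0.32 in preterm aorta, −2.34 ± 0.24 in preterm ductus and −2.75 ± 0.19 in near-term aorta (SD, n = 4). Among the neighbours in this order that share a vessel or a stage, near-term and newborn ductus, and preterm aorta and preterm ductus, did not differ beyond their spread. Probe A_70_P016836, which correlated with it at 0.949 over 24 arrays, had means of −2.48 ± 0.22 in preterm ductus and −2.65 ± 0.20 in preterm aorta, −1.99 ± 0.34 in near-term ductus and −2.71 ± 0.21 in near-term aorta, and −2.13 ± 0.46 in newborn ductus and −1.56 ± 0.39 in newborn aorta.

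Newborn minus near-term aorta was 1.56 ± 0.24 for INHA probe A_70_P016837, or 2.94-fold (limma, adjusted p = 0.00104), and 1.15 ± 0.23 for A_70_P016836, or 2.22-fold (limma, adjusted p = 0.00586). Newborn minus preterm aorta was 1.14 ± 0.24 and 1.08 ± 0.23, or 2.20-fold and 2.12-fold (limma, adjusted p = 0.00374 and 0.00455). The INHA probes were the 2 of 10 member probes called in each of these comparisons, against 6.44% of all probes from near term and 9.09% from preterm. Both calls held with any 1 array left out. They ended with normexp, where newborn minus near-term aorta was 0.72 and 0.55 (limma, adjusted p = 0.155 and 0.254), and in a fit of the 2 groups alone, where the size stayed and adjusted p was 0.124 and 0.133. When arrays with a limit under 1.5 alone entered, newborn minus near-term aorta was called for A_70_P016837 and not for A_70_P016836, at 1.04 (limma, adjusted p = 0.155). Newborn minus preterm aorta lost both calls under the same 3 settings, down to 0.50 and 0.80 when only arrays with a limit under 1.5 entered (limma, adjusted p = 0.532 and 0.376).

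In the newborn vessels INHA was lower in the ductus than in the aorta by probe A_70_P016837, at −0.77 ± 0.24 (limma, adjusted p = 0.0453), and not by A_70_P016836, at −0.56 ± 0.23 (limma, adjusted p = 0.123). This was the 1 of 10 member probes called, against 10.1% of all probes. The call was lost under 6 of 11 alternative settings and with 6 of 8 arrays left out in turn, at adjusted p up to 0.373. Near term the sign was the other way, with INHA 0.84 ± 0.24 and 0.72 ± 0.23 higher in the ductus, not called (limma, adjusted p = 0.114 and 0.21), and preterm the vessels differed by −0.01 ± 0.24 and 0.17 ± 0.23.

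The change of INHA at birth was called different between the vessels by 1 of its 2 probes. The newborn minus near-term change in the ductus minus that in the aorta was −1.61 ± 0.34 for A_70_P016837 (limma, adjusted p = 0.0349) and −1.29 ± 0.33 for A_70_P016836 (limma, adjusted p = 0.122). This was the 1 of 10 member probes called, against 0.393% of all probes. The sign stayed negative under all 11 alternative settings and with each of 16 arrays left out, and the call was lost under 6 settings and with 12 arrays left out. Newborn minus near-term ductus itself was −0.05 ± 0.24 and −0.14 ± 0.23 for INHA, with 95% intervals of −0.54 to 0.45 and −0.62 to 0.35, and with median scaling these values were 0.26 and 0.17.

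**Figure D2:**
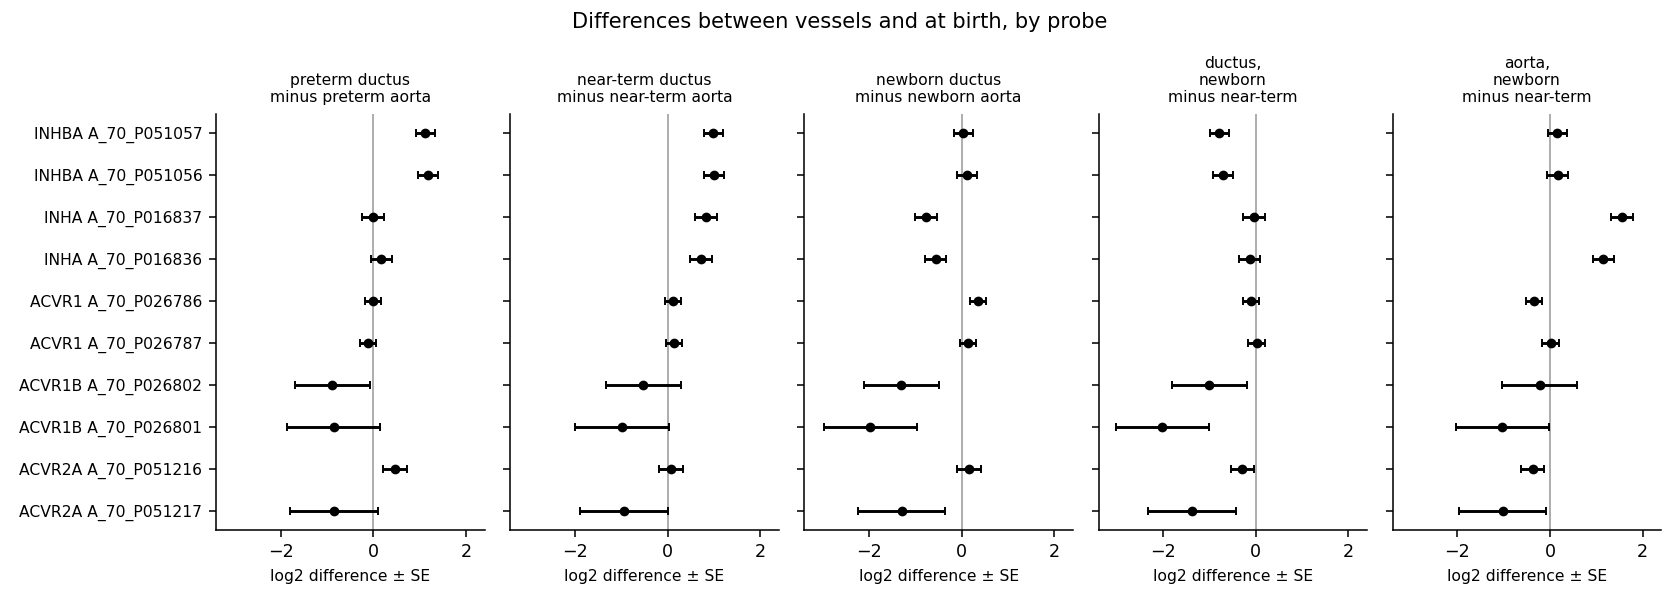
Log2 difference with its standard error for the 10 probes (rows) in 5 comparisons (panels): ductus minus aorta at each stage, and newborn minus near-term in each vessel. INHBA stands above 0 in both fetal panels and near 0 in the newborn panel, INHA stands at 1.56 and 1.15 in the aorta at birth, and the ACVR1B probes and ACVR2A probe A_70_P051217 have standard errors of 0.81 to 1.01.

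From preterm to near term 0 of the 10 probes were called in either vessel or in the difference between the vessels, by limma at an adjusted p under 0.05, where 0.314% of all probes were called in the ductus, 0.493% in the aorta and 0% in the difference. At an unadjusted p under 0.05 the members numbered 1, 0 and 1, beside 11.3%, 10.4% and 1.6% of all probes. The 1 in the ductus was INHA probe A_70_P016836, with 0.49 ± 0.23, and the 1 in the difference was INHA probe A_70_P016837, with 0.85 ± 0.34. With array weights 3 dim receptor probes were called in the ductus, at 1.89 and 2.28 for ACVR1B and 2.14 for A_70_P051217 of ACVR2A (limma, adjusted p = 0.0499, 0.0314 and 0.0422). The share of all probes called with array weights is not given here, so nothing is read from that count.

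The subunits were also set against each other within each array, as the log2 signal of INHBA probe A_70_P051057 minus that of INHA probe A_70_P016837, which does not depend on how arrays are scaled. The size of this value has no meaning of its own because the probes differ, but its change between groups does. It was 6.90, 7.21, 7.02 and 6.96 in preterm ductus, against 6.09, 6.54, 5.16 and 5.79 in preterm aorta. It was 7.05, 6.33, 6.56 and 6.74 in near-term ductus, against 7.13, 5.83, 6.74 and 6.38 in near-term aorta. In newborn lambs it was 6.15, 5.45, 6.21 and 5.88 in the ductus, against 4.99, 5.76, 4.92 and 4.82 in the aorta. In both vessels the newborn arrays were therefore low, and all 4 were below all 4 near-term arrays of the same vessel.

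**Figure D3:**
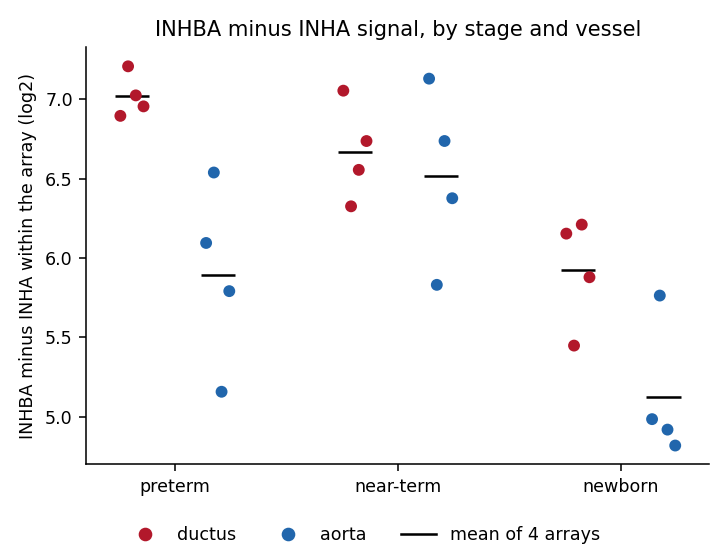
INHBA minus INHA log2 signal within each array, by stage and vessel, with 1 point per array and a line at the mean of 4 arrays. The means run 7.02, 6.67 and 5.92 in the ductus and 5.90, 6.52 and 5.12 in the aorta from preterm to near term to newborn.

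Newborn minus near-term, the value fell by 0.74 in the ductus and by 1.40 in the aorta, and newborn minus preterm it fell by 1.10 in the ductus (exact permutation test over 4 and 4 arrays, two-sided, p = 0.0286 each, the smallest that 4 against 4 arrays allow). Newborn minus preterm aorta was −0.77 (exact permutation p = 0.0571), near-term minus preterm −0.35 in the ductus and 0.62 in the aorta (exact permutation p = 0.114 and 0.2). Adjusted over these 6 stage comparisons the 3 smallest became 0.0571, so none passed after adjustment. The ductus comparisons with newborn lambs use the fetal ductus values whose height chose INHBA, so their p-values are not independent of that choice. Under normexp the falls from near term were −0.32 in the ductus and −0.24 in the aorta (exact permutation p = 0.457 and 0.686), and with the second INHA probe they were −0.66 and −0.99 (exact permutation p = 0.0571 each). The ductus p also became 0.0571 without near-term ductus replicate 1, newborn ductus replicate 2 or newborn ductus replicate 4, and the aorta p without any 1 of near-term aorta replicates 1, 3 and 4 or newborn aorta replicates 1, 3 and 4. In the ductus the called change from near term was that of INHBA, and in the aorta it was that of INHA. Between the vessels it was higher in the ductus by 0.80 in newborn lambs (exact permutation p = 0.0571), and the fetal values of 1.12 in preterm and 0.15 in near-term fetuses contain the differences that chose INHBA and are a description.

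Of the receptors, 0 of 6 probes were called in any of the 11 comparisons by limma, and 0 had an unadjusted p under 0.05. Of all tested probes, 0% to 15.7% were called in these comparisons and 1.6% to 33.8% had an unadjusted p under 0.05. With normexp the dim probes were called lower in newborn than in near-term ductus, at −1.08 and −1.24 for ACVR1B and −1.41 for A_70_P051217 of ACVR2A (limma, adjusted p = 0.0461, 0.0371 and 0.0126). ACVR1 was well above background on all 24 arrays by both probes and was nearly level across groups, at −1.60 to −0.52 by A_70_P026786 and −1.88 to −1.05 by A_70_P026787. In newborn lambs A_70_P026786 read −0.79, −0.98, −1.16 and −0.97 in the ductus, against −1.60, −1.34, −1.21 and −1.16 in the aorta. The newborn aorta arrays were below all preterm aorta arrays, which lay between −1.02 and −0.91. The newborn ductus minus aorta difference was 0.35 ± 0.17 (95% interval −0.0048 to 0.71, limma, adjusted p = 0.182) and newborn minus preterm aorta was −0.35 ± 0.17 (limma, adjusted p = 0.263). The second probe gave 0.14 ± 0.18 and −0.08 ± 0.18 for the same comparisons, and the probes correlated with each other at 0.438 over 24 arrays.

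**Figure D4:**
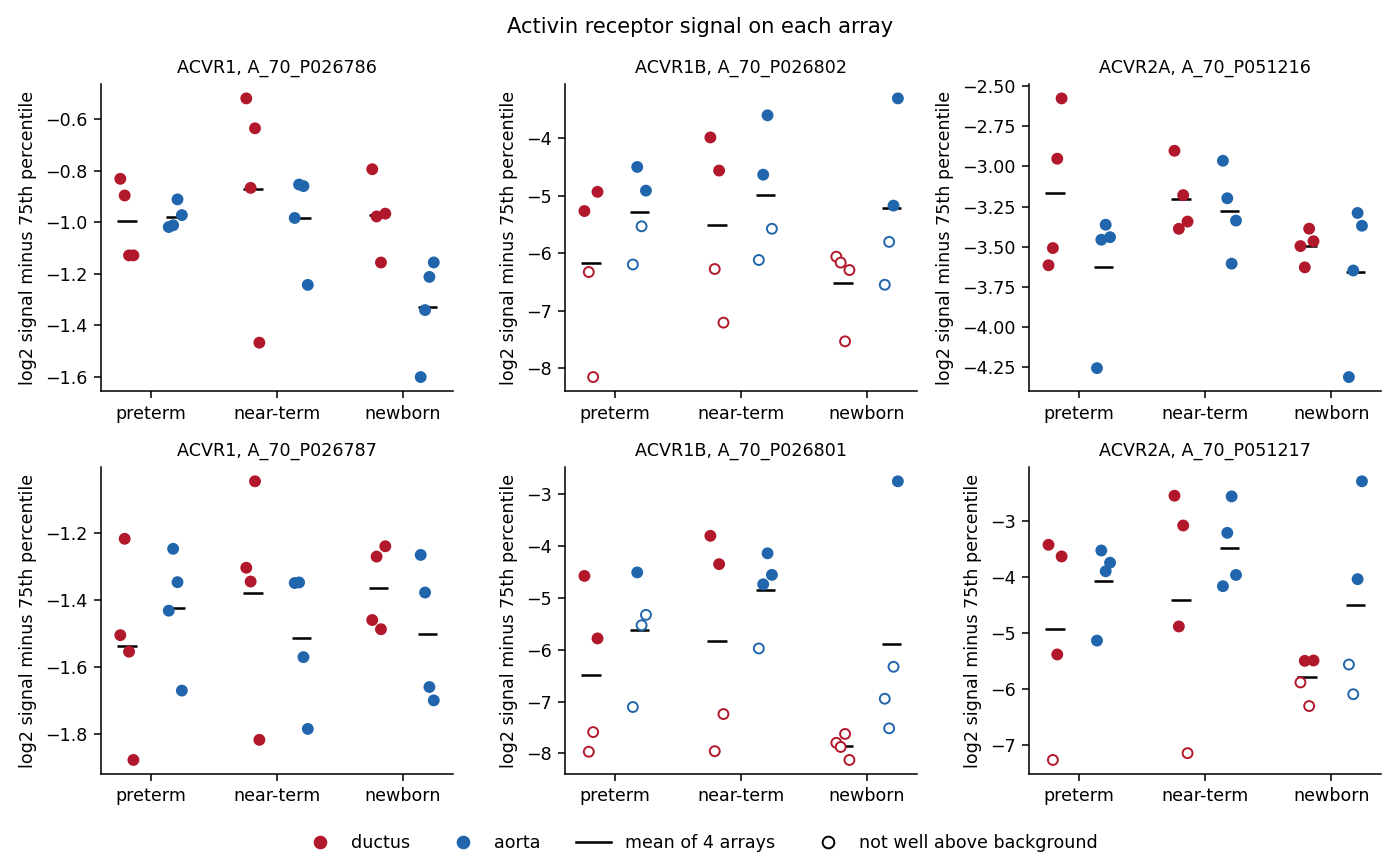
Log2 signal minus the 75th percentile of the array for both probes of ACVR1, ACVR1B and ACVR2A, by stage and vessel, with 1 point per array, open where the spot was not well above background, and a line at the mean of 4 arrays. The vertical axes differ between panels. ACVR1 is filled throughout, and both ACVR1B probes are open on all 4 newborn ductus arrays.

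ACVR1B, the type I receptor of activin, was near the floor of the arrays. Probe A_70_P026802 was well above background on 10 and A_70_P026801 on 9 of 24 arrays, and both on 0 of 4 newborn ductus arrays. In newborn lambs A_70_P026802 read −6.06, −6.16, −7.54 and −6.29 in the ductus, all not well above background, against −6.55, −5.80, −5.17 and −3.31 in the aorta, where 2 of 4 arrays were well above background. The measured difference of −1.31 ± 0.81 was not called (limma, adjusted p = 0.266). With the floor of the newborn ductus arrays as a bound, the means put this probe 1.36-fold lower in newborn ductus than in newborn aorta. Against near-term ductus they put it 1.1-fold lower, where the measured difference of −1.01 ± 0.81 was not called (limma, adjusted p = 0.372). The bounds themselves were not tested. The bound sets the mean log2 signal of the brighter group against the floor of each dim array. That floor is the lowest signal that was well above background there, or the probe's own if higher. In both brighter groups 2 of 4 arrays were well above background and the others entered as measured, so the bound is not strict. Those 2 were in each group the arrays with a detection limit above 1.5, of which newborn ductus had 0. The part of this in the bounds was not tested. These bounds rest on single arrays: without newborn aorta replicate 4 (−3.31) no bound remained against newborn aorta, and without near-term ductus replicate 1 (−3.99) or replicate 3 (−4.56) none remained against near-term ductus. For A_70_P026801 the floor allows no fold.

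ACVR2A, the type II receptor that binds activin first, gave unlike readings by its probes. A_70_P051216 was well above background on all 24 arrays, between −4.31 and −2.58, with means of −3.16 ± 0.49 in preterm ductus and −3.63 ± 0.42 in preterm aorta, −3.20 ± 0.22 in near-term ductus and −3.28 ± 0.27 in near-term aorta, and −3.49 ± 0.10 in newborn ductus and −3.65 ± 0.46 in newborn aorta (SD, n = 4). A_70_P051217 was well above background on 18 arrays and ranged from −7.27 to −2.28. The probes correlated with each other at 0.318 over 24 arrays, while A_70_P051217 correlated with the ACVR1B probes at 0.846 and 0.899.

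The dim receptor probes moved with the detection limit of the array. On the 12 arrays with a limit above 1.5, A_70_P026802 of ACVR1B had a median of −4.77 and was well above background on 10, and on the 12 arrays under 1.5 its median was −6.29, with 0 well above background. A_70_P026801 had medians of −4.56 and −7.61 in these classes, with 9 and 0 arrays well above background, and A_70_P051217 of ACVR2A −3.47 and −5.53, with 12 and 6. The brighter probes moved less between these classes, with medians of −3.35 and −3.48 for A_70_P051216 of ACVR2A, −2.35 and −2.00 for A_70_P016837 of INHA and 3.87 and 4.05 for A_70_P051057 of INHBA. The newborn ductus, which held no array above 1.5, is the group in which the dim probes were lowest, and the part of the detection limit in that was not tested.

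**Figure D5:**
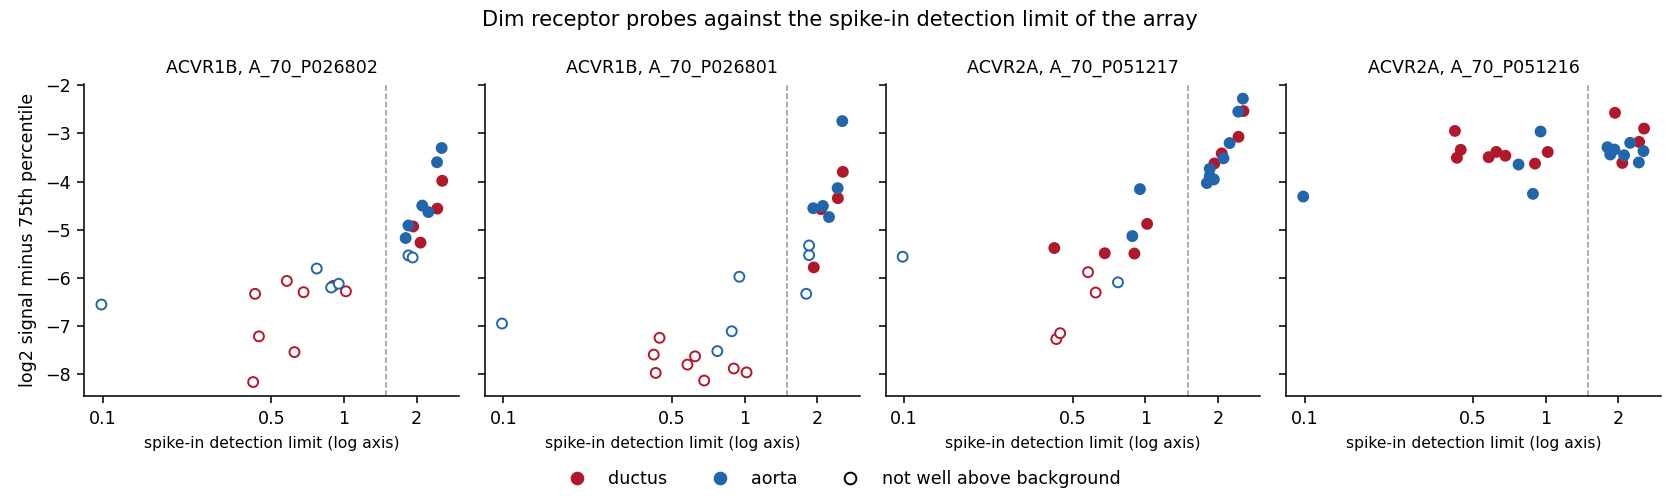
Log2 signal minus the 75th percentile against the spike-in detection limit of the array (log axis) for 4 receptor probes, with 1 point per array, open where not well above background, and a dashed line at 1.5. The first 3 probes are higher to the right of the line, with medians of −4.77, −4.56 and −3.47 against −6.29, −7.61 and −5.53 to the left, and A_70_P051216 of ACVR2A is level.

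Other genes of activin, TGF-beta and bone morphogenetic protein signalling were read from a fixed list, of which 27 were tested: 9 ligands, 4 receptors, 4 antagonists, 6 SMAD genes and 4 genes that these ligands regulate. In newborn ductus over newborn aorta 2 were called higher and 1 lower, a count of 3 of 27 beside 10.1% of all probes. The ligand BMP2 was at −2.67 ± 0.74 in ductus and −4.91 ± 0.56 in aorta (SD, n = 4), a difference of 2.24 ± 0.48 (limma, adjusted p = 0.0053). BAMBI, a decoy receptor without a kinase domain that blunts activin and TGF-beta signals, was at 1.00 ± 0.36 in ductus and −0.03 ± 0.13 in aorta, a difference of 1.03 ± 0.23 (limma, adjusted p = 0.0082). CHRD, which encodes the antagonist chordin, was lower and was not well above background on any newborn ductus array. The call rests on its measured means, −7.87 in newborn ductus and −4.62 in newborn aorta (limma, adjusted p = 0.0459). By the same floor bound, which was not tested, CHRD was 2.04-fold lower in newborn ductus than in newborn aorta. In newborn aorta 3 of 4 arrays were well above background, and the arrays ran from −7.54 to −2.65 and entered as measured. Without newborn aorta replicate 4 (−2.65) the bound was 1.29-fold and without replicate 2 (−7.54) it was 4.00-fold. The call of CHRD held with 1 of 8 arrays left out, newborn aorta replicate 2, and was lost with each of the other 7, at adjusted p up to 0.145, and under 4 of 10 other settings. No newborn ductus array had a detection limit above 1.5, against 2 of newborn aorta, and the part of this in the CHRD call was not tested. BMP2 and BAMBI kept their calls with each of 8 arrays left out. Among the other settings BMP2 kept its call under 9 of 10 and lost it under normexp (limma, adjusted p = 0.2). BAMBI kept its call under 9 of 11 and lost it with the compared groups alone, among others.

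In the ductus at birth, newborn minus near-term, TGFB1 rose by 1.02 ± 0.20, with 0.86 ± 0.26 in newborn and −0.15 ± 0.21 in near-term ductus (limma, adjusted p = 0.00215). BMP6 fell by 1.06 ± 0.32, with −1.49 ± 0.30 in newborn and −0.43 ± 0.41 in near-term ductus (limma, adjusted p = 0.0396). Newborn minus preterm ductus, BAMBI rose by 0.86 ± 0.23 (limma, adjusted p = 0.0149), and BMP6 fell by 1.04 ± 0.32 and the type II receptor ACVR2B by 0.51 ± 0.16 (limma, adjusted p = 0.0333 and 0.0377). These were 2 of 27 genes called from near term and 3 of 27 from preterm, beside 10.8% and 15.7% of all probes. TGFB1 kept its call with each of 8 arrays left out, while BMP6 lost it with 6 of 8 from near term and 5 of 8 from preterm, ACVR2B with 6 of 8 and BAMBI with 2 of 8, at adjusted p up to 0.117. The median difference of the 27 genes was −0.95 from near term and −0.54 from preterm, beside −0.31 and −0.20 for all probes. These medians include dim genes. Newborn ductus had 0 arrays with a detection limit above 1.5, against 2 each of near-term and preterm ductus. The part of this in the medians was not tested, so they are not read as a fall of the pathway. The count from near term was 16 with normexp, 17 with array weights and 6 without near-term ductus replicate 4, and 1 without any of 5 other arrays (near-term ductus replicates 2 and 3, newborn ductus replicates 1, 3 and 4). The count from preterm was 0 without newborn ductus replicate 3 and 1 without newborn ductus replicate 4 or preterm ductus replicate 1. For these other fits the share of all probes called is not given here, so nothing about the list is read from their counts. Of the 27 genes 11 were not well above background on any newborn ductus array and 11 were well above background on all 24 arrays.

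SMAD2 and SMAD3, which carry the activin signal, were not called in any comparison. SMAD2 had the third smallest p between the changes of the vessels at birth, at 0.68 ± 0.30 (limma, adjusted p = 0.577). SMAD3 was not well above background on any newborn ductus array and was well above background on 3 of 4 arrays each of newborn aorta and near-term ductus (limma, adjusted p = 0.156 and 0.126).

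In the other 8 comparisons 0 of the 27 were called by limma, with 5 at an unadjusted p under 0.05 between the preterm vessels and 6 between the near-term vessels, where 11.0% and 7.87% of all probes had one. With array weights 14 were called between the preterm vessels, 2 between the near-term vessels, 13 in near-term minus preterm ductus, 1 in near-term minus preterm aorta and 3 in newborn minus near-term aorta. The share of all probes called with array weights is not given here, so nothing about the list is read from these counts. The smallest adjusted p between the preterm vessels belonged to BMP4, a ligand, at 1.24 ± 0.35 higher in the ductus (limma, adjusted p = 0.134), followed by the type I receptor BMPR1B at −1.76 ± 0.53 (limma, adjusted p = 0.164). Between the near-term vessels BMP6 was 0.95 ± 0.32 higher in the ductus and BMPR1B −1.47 ± 0.53 (limma, adjusted p = 0.257 and 0.316). In the aorta the smallest belonged to TGFB3, at −0.71 ± 0.29 for newborn minus near-term and −0.81 ± 0.29 for newborn minus preterm (limma, adjusted p = 0.156 and 0.0883). For the aorta at birth 4 had an unadjusted p under 0.05 from near term and 3 from preterm, beside 19.9% and 20.3% of all probes. From preterm to near term 3 did in the ductus and 0 in the aorta, beside 11.3% and 10.4%. For the difference between the vessels 3 did at birth and 0 from preterm to near term, beside 7.71% and 1.6%. FST, which encodes follistatin, the protein that binds and blocks activin, is named for that role and not by its values. It was well above background on all 24 arrays, and its difference in newborn ductus over newborn aorta was 0.14 ± 0.38 (limma, adjusted p = 0.803), with 0.20 ± 0.38 for newborn minus near-term ductus and 0.22 ± 0.38 for newborn minus near-term aorta.

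Markers of the cell types in a vessel wall moved between the same groups. CNN1, which encodes the smooth muscle protein calponin and was the 1 smooth muscle marker on the array, was well above background on every array on which it was measured. It rose in the aorta at birth together with INHA, by 0.83 ± 0.21 from near term and 1.14 ± 0.20 from preterm (limma, adjusted p = 0.0264 and 0.000953), on 3 near-term aorta arrays since 1 spot was left out. The summed level of 2 macrophage markers, CD14 and CD86, in units of the 75th percentile, was 1.10 to 1.42 in newborn ductus and 0.38 to 0.54 in near-term ductus, and 0.57 to 1.20 in newborn aorta and 0.43 to 0.50 in near-term aorta. In the aorta this followed CD14, with means of −1.53 near term and −0.46 in newborn lambs. CD86 went the other way there, from −3.26 to −3.81, while in the ductus both means were higher in newborn lambs. The summed level of 3 mast cell markers was 2.12 to 4.06 in newborn ductus and 12.5 to 17.1 in near-term ductus, and 1.498 to 3.18 in newborn aorta and 4.39 to 7.95 in near-term aorta. Of these, TPSB2, a mast cell tryptase, fell in the ductus by 2.14 ± 0.27 and in the aorta by 1.26 ± 0.27 (limma, adjusted p = 3.77e-05 and 0.00801), and KIT was not well above background on any newborn ductus array.

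The summed level of 3 endothelial markers was 0.39 to 1.07 in newborn ductus and 0.21 to 0.42 in near-term ductus, and 0.17 to 0.27 in newborn aorta and 0.22 to 0.33 in near-term aorta. SELP, which encodes P-selectin, carried this with a rise of 3.02 ± 0.38 in the ductus at birth (limma, adjusted p = 3.82e-05), while KDR fell in the aorta by 0.93 ± 0.25 (limma, adjusted p = 0.0333) and SELE was well above background on 1 of 24 arrays. KDR also ran against the ductus sum, with means of −2.32 in near-term and −2.94 in newborn ductus. In such a sum the brightest probe weighs most. The 3 fibroblast markers summed to 43.9 to 69.4 in newborn ductus and 13.9 to 31.2 in newborn aorta, nearly all of it DCN, which was 1.31 ± 0.25 higher in the ductus (limma, adjusted p = 0.00265). The other fibroblast markers had the opposite sign and were not called, COL1A1 at −0.44 ± 0.31 and COL3A1 at −0.75 ± 0.49. The 3 lymphocyte markers summed to 0.31 to 0.75 in newborn ductus and 0.14 to 0.54 in newborn aorta, which followed CXCR4 at 1.92 ± 0.32 (limma, adjusted p = 0.000604). CD3E at −0.89 ± 0.69 and CD4 at −2.47 ± 1.13 had the opposite sign and were not called, and CD4 was not well above background on any newborn ductus array. The part of these shifts in the changes of INHBA and INHA was not tested.

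Among 604 other genes with a symbol, those whose log2 signal ran most like INHBA probe A_70_P051057 over the 24 arrays were BMP4 (Pearson correlation 0.705), the vasoconstrictor gene EDN1 (0.616), the growth factor gene NRG1 (0.61), TPSB2 (0.59) and VIM, which encodes the filament protein vimentin (0.574). Over all 604 genes the correlation ran from −0.744 to 0.705, with a median of −0.14, and the points share arrays, slides and scaling. BMP4 stood at 0.65 ± 0.45 in preterm ductus and −0.58 ± 0.82 in preterm aorta, 0.77 ± 0.22 in near-term ductus and −0.08 ± 0.34 in near-term aorta, and 0.58 ± 0.42 in newborn ductus and 0.25 ± 0.55 in newborn aorta (SD, n = 4). Its arrays overlapped between the vessels in preterm fetuses and in newborn lambs, where those of INHBA overlapped in newborn lambs alone, and in the ductus it was −0.19 ± 0.35 for newborn minus near-term (limma, adjusted p = 0.724). EDN1 kept its gap, at −1.64 ± 0.38 in newborn ductus and −3.38 ± 0.56 in newborn aorta. INHBA correlated with INHA at 0.098 and with ACVR1 probe A_70_P026786 at 0.14 over the same arrays.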

How the data were processed

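RNA of 24 vessel samples was labelled with Cy3 and hybridised to 1-colour Agilent arrays, 1 sample per array. The authors deposited scanner output with a processed spot intensity, linear and already background-subtracted by Agilent Feature Extraction 9.5.3.1, and other spot flags, per the file headers. The headers and labels record no scaling between arrays. Control spots and outlier spots were left out, the 75th percentile of each array was subtracted on the log2 scale, and spots of 1 probe were averaged. Probes well above background on at least 4 of 24 arrays were tested (13997 of 15008). The 6 group means were estimated together from all arrays with limma 3.58.1 (R 4.3.3), with moderated variances, and 11 comparisons were drawn from them. INHBA minus INHA within an array was tested by exact permutation. The number of arrays limits the precision. The limma p-values rest on the spread between samples within groups, pooled over the 6 groups and moderated across probes.

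A symbol from the array or from RefSeq (assembly ARS-UI_Ramb_v3.0, used for names alone) was found for 1146 probes, covering 661 symbols. RefSeq accessions named 520 of them, gene IDs 135, symbols 454 and synonyms 37, and 13862 probes had none. The named genes were all member probes, list genes called or with the 3 smallest p in a comparison, and the 5 genes most like INHBA. The members and lists were chosen with earlier results of these data known. The fit was also run on simulated data with independent normal noise around 1 mean per probe, and its outcome is not given here. That simulation held no detection limit classes, floor or slides, so it cannot test what these do to the calls. Alternatives were normexp background correction (offset 50), median scaling, quantile normalisation, other filters, outlier spots kept, the compared groups alone, array weights, the detection limit class or the replicate number as a block, each array left out, the second probes of INHBA and INHA and, chosen after seeing the data, the arrays with a detection limit under 1.5 alone and bounds with 1 bright array left out.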

Additional observations from a re-analysis of the deposited data

Results flagged for a closer look

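For ACVR1B probe A_70_P026802, newborn ductus replicate 3 stood apart from its group at −7.54, against −6.29 to −6.06 on the other 3 arrays, all of them not well above background. For ACVR2A probe A_70_P051216, preterm aorta replicate 1 stood apart at −4.26, against −3.46 to −3.36 on the others. Dixon's test marked these 2 of 60 groups of 4 arrays, where chance gives 3.

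For INHA probe A_70_P016837 the change at birth differed between the vessels, by −1.61 for ductus minus aorta (limma interaction, adjusted p = 0.0349), and the second probe did not pass (−1.29, limma, adjusted p = 0.122).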

How the results depend on the processing

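Counts of member probes called (of 10) and of list genes called (of 27) moved as follows, and the cause was not tested. The share of all probes called under each alternative is not given in this section. A setting may change the calls over the whole array, so these counts are not read as results about the members or the list. Normexp gave 1 member in preterm ductus minus aorta, 0 in near-term and newborn ductus minus aorta, newborn minus preterm ductus, both newborn aorta comparisons and the difference between the vessels at birth, and 16 list genes in newborn minus near-term ductus. Median scaling gave 0 members in the 3 vessel comparisons, both newborn ductus comparisons and the difference at birth, and 1 list gene in newborn minus near-term ductus. Quantile normalisation gave 2 members in newborn minus preterm ductus and 0 in the difference at birth, with 6 list genes in newborn ductus minus aorta and in newborn minus preterm ductus and 1 in newborn minus preterm aorta. The compared groups alone gave 0 members in the 3 vessel comparisons, both newborn aorta comparisons and the difference at birth, and 1 list gene in newborn ductus minus aorta. Probes well above background on all 24 arrays (8583) gave 2 members in newborn minus preterm ductus and 1 list gene in newborn minus preterm aorta. Array weights gave 3, 5 and 2 members in near-term minus preterm, newborn minus near-term and newborn minus preterm ductus, with 13, 17 and 7 list genes there, 14, 2 and 6 list genes in preterm, near-term and newborn ductus minus aorta, and 1 and 3 in near-term minus preterm and newborn minus near-term aorta. The detection limit class as a block gave 0 members in newborn ductus minus aorta and 2 in newborn minus preterm ductus, with 5, 1 and 5 list genes in newborn ductus minus aorta, newborn minus near-term and newborn minus preterm ductus. The arrays with a limit under 1.5 gave 0, 1 and 0 members in preterm, near-term and newborn ductus minus aorta, 1 and 0 in newborn minus near-term and newborn minus preterm aorta and 0 in the difference at birth, with 1 and 3 list genes in preterm and near-term ductus minus aorta, 5 and 1 in the newborn aorta comparisons and 1 in the difference at birth.

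With 1 array left out, members called ran from 0 to 2 in near-term and 0 to 1 in newborn ductus minus aorta, 1 to 2 and 0 to 2 in newborn minus near-term and newborn minus preterm ductus, 0 to 1 in the difference at birth, and stayed at 2 in preterm ductus minus aorta and both newborn aorta comparisons. List genes ran from 0 to 1 in preterm and 2 to 3 in newborn ductus minus aorta, 1 to 6 and 0 to 2 in newborn minus near-term and newborn minus preterm ductus, and 0 to 1 in both newborn aorta comparisons. INHBA minus INHA ran from 0.88 to 1.34 in preterm, −0.0798 to 0.35 in near-term (−0.0798 without near-term aorta replicate 2) and 0.70 to 1.01 in newborn ductus minus aorta. It ran from −0.48 to −0.24 in near-term minus preterm, −0.86 to −0.59 in newborn minus near-term and −1.19 to −0.94 in newborn minus preterm ductus, and from 0.38 to 0.85, −1.63 to −1.19 and −1.02 to −0.56 in the same aorta comparisons. Normexp gave −0.32 and −0.24 for newborn minus near-term ductus and aorta, and the second INHA probe −0.66 and −0.99.

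Ductus and aorta samples share replicate numbers, which are also slide rows. Deviations from group means correlated at −0.585 to 0.82 over 12 same-numbered pairs, above 0.1 in 6, and 5 of 12 ductus arrays correlated best with their own number. In newborn lambs ductus replicates 1, 2 and 3 did so, at 0.192, 0.148 and 0.154, and replicate 4 did not, at −0.036. Each fetal group mixed arrays of both detection limit classes, so this check cannot show whether a shared number means the same animal. The labels do not say so, and the main fit did not take the numbers to pair samples. With the replicate block 2 members were called in newborn minus preterm ductus and 0 in the difference at birth, with 2, 3 and 6 list genes in preterm, near-term and newborn ductus minus aorta. Sign flips over 4 pairs left −0.74 and −1.10 in the ductus (newborn minus near-term and minus preterm) and −1.40 in the aorta (newborn minus near-term), each at p = 0.125, the smallest such an exact test allows. Among the receptors, array weights called ACVR1B in newborn minus near-term ductus (−1.72 and −3.02, limma, adjusted p = 0.03 and 0.00169), as did normexp (−1.08 and −1.24, limma, adjusted p = 0.0461 and 0.0371), and both called A_70_P051217 of ACVR2A there (−2.28 and −1.41, limma, adjusted p = 0.0101 and 0.0126). ACVR1B probe A_70_P026801 was called in newborn ductus minus aorta with quantile normalisation (−1.53, limma, adjusted p = 0.045) and in near-term ductus minus aorta on the arrays with a limit under 1.5 (−1.62, limma, adjusted p = 0.0422). Probes near background, ACVR1B above all, are limited by the floor of the arrays.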
